A study of Mus musculus with 10 samples.

Results

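The insulin-like growth factor (IGF) system was followed here through 10 genes, chosen by name and found in the count data of every mouse by their Ensembl gene identifiers. They are the ligands *Igf1* and *Igf2*, the receptors *Igf1r* and *Igf2r*, and the binding proteins *Igfbp2* to *Igfbp7*, out of 25700 genes listed. RNA came from the tibialis anterior (TA) muscle of 12-week-old male C57BL/6 mice, taken at day 6 after cardiotoxin (CTX), a snake venom toxin that destroys muscle fibers and so starts regeneration. The 5 control mice carried Pax7Cre, a Cre recombinase expressed from the *Pax7* locus, and are labelled wild type. The 5 miR-501KO mice carried the same Pax7Cre together with a floxed *Mir501* allele on the X chromosome (Pax7CremiR-501fl/Y) and are labelled miR-501 -/-. Because Pax7 marks muscle stem cells, Cre acts in these cells and in the fibers they form, while macrophages, endothelium and connective tissue cells of the same muscle keep the allele. *Mir501* itself was not analysed here, so the deletion was not checked in these libraries.

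In muscle, IGF1 and IGF2 bind the tyrosine kinase receptor IGF1R, which signals through PI3K and AKT to raise protein synthesis through mTORC1 and to hold back the FoxO factors that drive protein breakdown. IGF2R binds IGF2 without this signalling and carries it to the lysosome. The binding proteins hold most of the secreted ligand and set how much of it reaches the receptor, and IGF2 and IGFBP5 are known to be made by differentiating myoblasts.

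The mature miR-501-3p and its matches in the genes' 3′ untranslated regions (UTRs) are shown because this miRNA is what the deletion removes. The miRNA lies on chrX:7241270-7241291 (GRCm38.p6, minus strand, RefSeq). Capitals mark its seed, bases 2 to 8, and in the *Igfbp5* windows they mark the complement of that seed (GGTGCAT) or of bases 2 to 7 (GTGCAT). The windows are read 5′ to 3′ along the *Igfbp5* transcript from the GENCODE annotation of GRCm38.
miR-501-3p: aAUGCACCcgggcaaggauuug
Igfbp5 7-base match: cagcacccaagGGTGCATcaagtgcatag
Igfbp5 6-base match, first: gggtgcatcaaGTGCATagcccaggtca
Igfbp5 6-base match, second: ttaataaaagtGTGCATtcagctag
The window of the 7-base match is chr1:72861170-72861198 on the minus strand, and the match begins at base 1190 of a UTR of 4445 bases. The window of the first 6-base match overlaps it, at chr1:72861161-72861188, and that of the second is chr1:72857932-72857956, at the end of the transcript. *Igfbp5* was the 1 gene of the 10 with the 7-base match, which 8.23% of the 14068 tested genes with an annotated 3′ UTR held. The 6-base match, which every 7-base match contains, was found in 4 of the 10, *Igf1*, *Igf1r*, *Igfbp4* and *Igfbp5*, against 33.8% of those genes. The 3′ UTRs of these 4 were 2813 to 7267 bases long and those of the other 6 were 209 to 3050. Tested genes with the 7-base match had a median 3′ UTR of 2570 bases, against 1345.5 for all tested genes with a 3′ UTR. A match in these letters is a description, not a measured site.

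The libraries held 18609222 to 24753258 counts per mouse. Counts on mitochondrial genes made up 6.59% (Pax7Cre mouse 4) to 14.0% (Pax7Cre mouse 2) of a library. Counts were scaled with TMM factors and are given as CPM, counts brought to a common library size. The 10 genes together took 0.301% to 0.462% of the counts. The lists of mature fiber, regenerating fiber, myogenic progenitor, macrophage, fibro-adipogenic progenitor and endothelial markers were detected in every mouse with no gene at 0. The same mice 2 and 4 of the controls stood at the ends of the mature fiber list, with 90166 and 35957 CPM summed over the list, against 52113 to 69816 CPM in the other 8 mice. In bulk RNA, fewer cells of a type and less RNA per cell cannot be told apart. Nothing in the labels says which of the numbered mice shared a litter or a preparation day.

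None of the IGF genes passed the test between the genotypes. With edgeR's quasi-likelihood test and Benjamini-Hochberg adjustment over 14410 genes, 0 of the 10 passed an adjusted p of 0.05, against 0.0% of all genes tested. At an unadjusted p under 0.05, 0 of the 10 passed, against 1.05% of all genes (151 genes, 55 higher and 96 lower in miR-501KO mice). DESeq2's Wald test also gave 0 genes after adjustment, and 150 before it. The number of genes before adjustment was 453 without Pax7Cre mouse 2 (267 higher and 186 lower), 470 without Pax7Cre mouse 4 (228 higher and 242 lower) and 98 without miR-501KO mouse 1 (39 higher and 59 lower). Of the IGF genes, 4 had a higher and 6 a lower mean in miR-501KO mice, and their median log2 fold change was -0.041, against -0.0042 over all genes tested. Of all genes tested, 47.9% were higher. The 95% interval of every one of the 10 included 0. The narrowest, that of *Igfbp7*, ran from -0.24 to 0.13 on the log2 scale and the widest, that of *Igfbp2*, from -0.46 to 0.47.

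**Figure D1:**
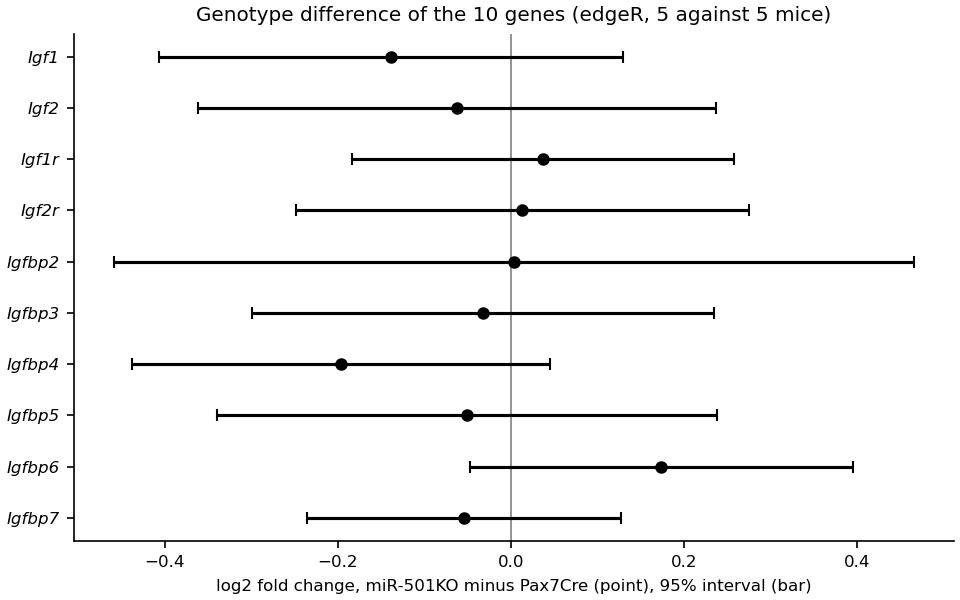
Log2 fold change (x axis, miR-501KO minus Pax7Cre) of each of the 10 genes, with points for the edgeR estimate and bars for its 95% interval from 5 mice per genotype. Every bar crosses 0, *Igfbp4* (-0.20) and *Igfbp6* (0.17) lie farthest from it, and *Igfbp2* has the widest bar.

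*Igf2* was the more abundant ligand. This imprinted growth factor (chr7:142650766-142666816, minus strand) had 1346, 1205, 1232, 1365 and 1649.7 CPM in Pax7Cre mice 1 to 5, and 1109, 1196, 1538, 1127 and 1539 CPM in miR-501KO mice 1 to 5. The groups overlapped, although 3 miR-501KO mice lay below every Pax7Cre mouse and the other 2 were among the 3 highest of all 10. Mean levels were 1359 ± 177 and 1302 ± 219 CPM (SD, n = 5 each). This gave a log2 fold change of -0.062 (SE 0.138; exact two-sided permutation p = 0.651).

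The *Igf2* locus holds a second gene model. *Gm49394*, a protein-coding model on the same strand, overlaps the exons of *Igf2*, and its count was 93.1% to 96.4% of the *Igf2* count in each mouse. The files do not show whether reads on the shared exons were entered under both names. The *Igf2* count exceeded that of *Gm49394* by 4.60% ± 1.33 of the *Igf2* count in Pax7Cre mice and by 4.51% ± 0.524 in miR-501KO mice (SD, n = 5 each; exact two-sided permutation p = 0.929). *Igf2os*, on the opposite strand, overlaps *Igf2* exons too and was not analysed here.

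*Igf1*, the ligand that growth hormone induces in liver and that macrophages and muscle cells also make, lies at chr10:87858265-87937042 on the plus strand. It had 199, 185, 290.2, 205 and 222 CPM in Pax7Cre mice 1 to 5 and 195, 210.3, 232, 174 and 189.6 CPM in miR-501KO mice 1 to 5. Pax7Cre mouse 3 was the highest of the 10, and the other 9 spanned 174 to 232 CPM with the genotypes mixed. The means of 221 ± 41.2 and 200.3 ± 22.0 CPM (SD, n = 5 each) gave a log2 fold change of -0.14 (SE 0.124, 95% interval -0.41 to 0.13; exact two-sided permutation p = 0.413). Without Pax7Cre mouse 3 the log2 fold change was -0.019, so most of the difference in means came with that mouse.

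The receptors differed little. *Igf1r*, the signalling receptor (chr7:67952827-68233668, plus strand), ran from 24.5 to 33.4 CPM in Pax7Cre mice and from 27.0 to 32.0 CPM in miR-501KO mice, so all miR-501KO values fell within the control range. Its log2 fold change was 0.037 (SE 0.102; exact two-sided permutation p = 0.754). *Igf2r*, the imprinted scavenger of IGF2 that also sorts lysosomal enzymes (chr17:12682406-12769664, minus strand), ran from 208 to 299 CPM and from 228 to 303 CPM. Its log2 fold change was 0.013 (SE 0.121; exact two-sided permutation p = 0.921). Pax7Cre mouse 2 was the lowest of all mice for both receptors.

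**Figure D2:**
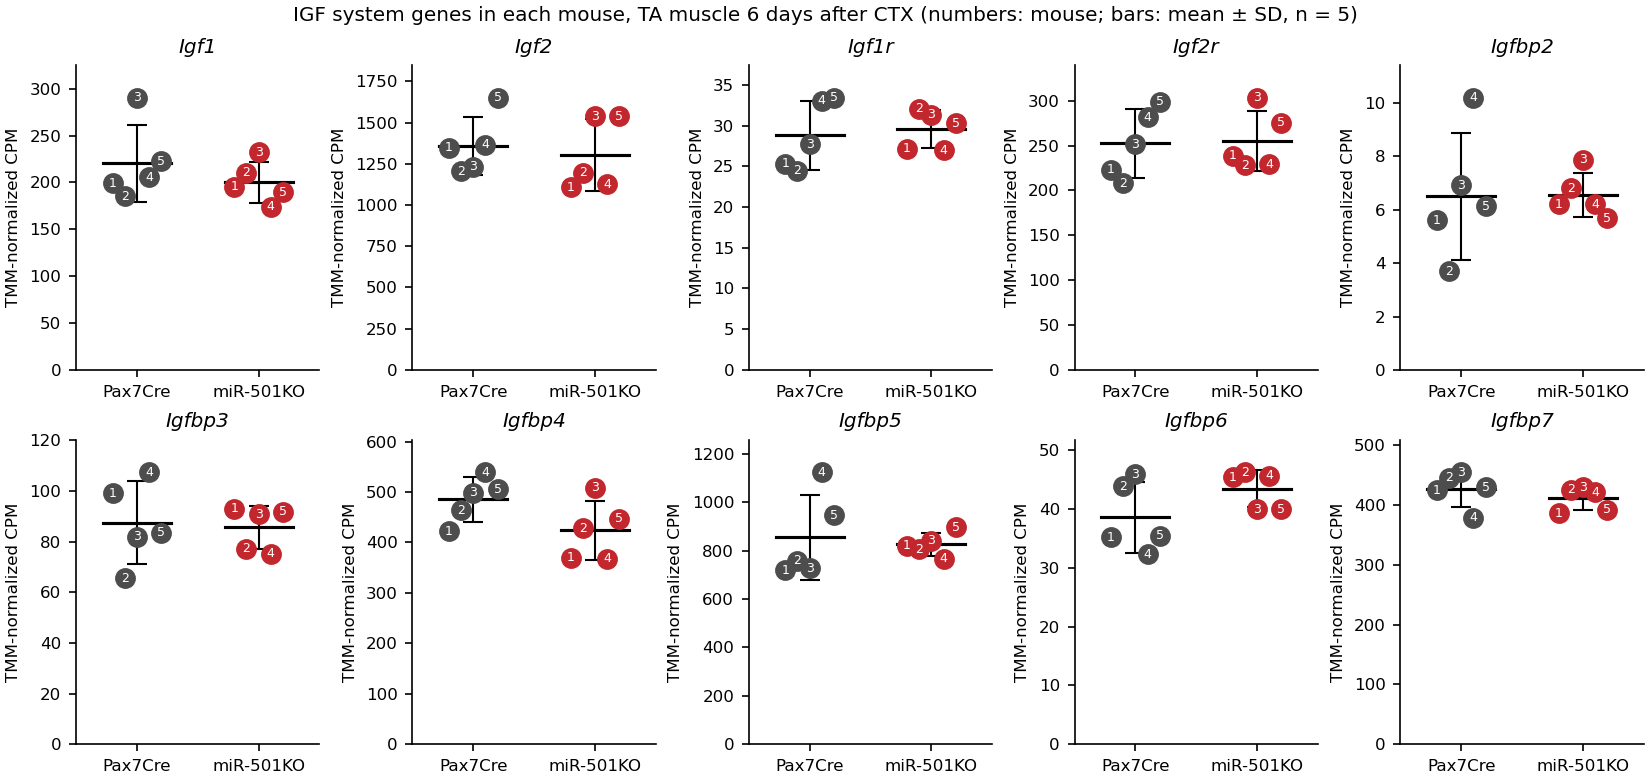
TMM-normalized CPM (y axis, from 0) of each of the 10 genes in each mouse, with Pax7Cre in grey and miR-501KO in red. Numbers are mouse numbers, horizontal lines group means and bars ± SD (n = 5). The genotypes overlap in all 10 panels, and Pax7Cre mouse 4 is the highest point for *Igfbp2*, *Igfbp3*, *Igfbp4* and *Igfbp5*.

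Among the binding proteins, *Igfbp4* and *Igfbp6* had the largest log2 fold changes, in opposite directions. *Igfbp4*, an inhibitor of IGF action that the protease PAPPA cleaves (chr11:99041244-99054392, plus strand), had 422, 464, 499, 539.5 and 506 CPM in Pax7Cre mice 1 to 5. In miR-501KO mice 1 to 5 it had 369, 428, 509, 367 and 448 CPM. Of these, mice 1 and 4 lay below every Pax7Cre mouse and the other 3 lay within the control range. The means were 486 ± 44.7 and 424 ± 59.0 CPM (SD, n = 5 each), with a log2 fold change of -0.20 (SE 0.112, 95% interval -0.44 to 0.045), an unadjusted p of 0.103 and an exact two-sided permutation p of 0.103. The smallest unadjusted p of the 10 fits that left out 1 mouse was 0.0323. It came without miR-501KO mouse 3, the highest of its group, where 171 of 14483 genes were under 0.05.

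*Igfbp6*, which prefers IGF2 over IGF1 (chr15:102144362-102149511, plus strand), had 35.2, 43.9, 46.0, 32.3 and 35.5 CPM in Pax7Cre mice 1 to 5 and 45.4, 46.3, 40.0, 45.7 and 40.0 CPM in miR-501KO mice 1 to 5. Pax7Cre mice 1, 4 and 5 lay below every miR-501KO mouse, whereas Pax7Cre mice 2 and 3 were as high as the miR-501KO mice. The means were 38.6 ± 5.97 and 43.5 ± 3.19 CPM (SD, n = 5 each). The log2 fold change was 0.17 (SE 0.102, 95% interval -0.047 to 0.40), with an unadjusted p of 0.113 and an exact two-sided permutation p of 0.127. The smallest unadjusted p of the 10 fits that left out 1 mouse was 0.0244, without Pax7Cre mouse 3. The unadjusted p was 0.0485 without Pax7Cre mouse 2. These are the control mice that were as high as the miR-501KO mice. In these fits 140 of 14506 and 453 of 14510 genes were under 0.05. No adjusted p passed 0.05 in any of these fits.

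*Igfbp5*, whose 3′ UTR held the 7-base match, is secreted by differentiating myoblasts and binds the extracellular matrix (chr1:72857932-72874884, minus strand). It had 719, 758, 728, 1125 and 946 CPM in Pax7Cre mice 1 to 5 and 819.9, 805, 841, 767 and 896 CPM in miR-501KO mice 1 to 5. All 5 miR-501KO mice lay between the third and the fourth control mouse in rank. The means were 855 ± 177 and 826 ± 47.7 CPM (SD, n = 5 each). The log2 fold change was -0.050 (SE 0.133, 95% interval -0.34 to 0.24; exact two-sided permutation p = 0.754), and it was 0.068 without Pax7Cre mouse 4.

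*Igfbp2*, which lies beside *Igfbp5* on the plus strand (chr1:72824503-72852474), was the lowest binding protein, with 70 to 254 counts per mouse. It had 5.60, 3.69, 6.92, 10.2 and 6.12 CPM in Pax7Cre mice 1 to 5 and 6.20, 6.80, 7.87, 6.20 and 5.68 CPM in miR-501KO mice 1 to 5. Both the lowest and the highest value were in Pax7Cre mice, 2.76-fold apart, and the log2 fold change was 0.0035 (SE 0.213; exact two-sided permutation p = 0.944). *Igfbp3*, the main carrier of IGFs in the circulation (chr11:7206086-7213923, minus strand), ran from 65.5 to 107 CPM in Pax7Cre mice and from 75.3 to 93.0 CPM in miR-501KO mice. Its log2 fold change was -0.032 (SE 0.123; exact two-sided permutation p = 0.841). *Igfbp7*, a matrix protein of vessels and stroma with low affinity for IGFs (chr5:77349240-77408041, minus strand), varied least relative to its level (highest over lowest mouse 1.20), with 378 to 455 CPM in Pax7Cre and 386 to 429 CPM in miR-501KO mice. Its log2 fold change was -0.054 (SE 0.0836; exact two-sided permutation p = 0.349). It shares exonic positions with *Polr2b* on the opposite strand. The library kit marks strand, but the strand setting of the counting is not given in the sources used here.

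The control mice varied more than the miR-501KO mice in most of these genes. The coefficient of variation was larger in Pax7Cre mice for 8 of the 10, with *Igf2* and *Igfbp4* the exceptions. For *Igfbp2* it was 36.6% against 12.8%, and for *Igfbp5* 20.7% against 5.77%. The same direction was common in these libraries, where 79.2% of all genes tested had the larger log2 SD in Pax7Cre mice. For *Igfbp2* the log2 SD was 0.521 in Pax7Cre and 0.176 in miR-501KO mice, and for *Igfbp5* 0.284 and 0.0827. The medians over all genes tested were 0.215 and 0.133. The cause of the difference in spread was not tested. Pax7Cre mouse 4, the lowest in mature fiber markers, was the highest mouse for 4 of the 10 genes (*Igfbp2*, *Igfbp3*, *Igfbp4* and *Igfbp5*) and the lowest for *Igfbp6* and *Igfbp7*. Pax7Cre mouse 2, the highest in mature fiber markers, was the lowest mouse for 4 (*Igf1r*, *Igf2r*, *Igfbp2* and *Igfbp3*). The part of fiber content, or of the mitochondrial share that ran with it in these mice, was not tested. With both of these mice left out, 0 of the 10 genes passed an unadjusted p of 0.05, against 3.64% of all genes in that fit (531 of 14580, with 279 higher and 252 lower). The log2 fold changes were -0.24 for *Igf1*, -0.16 for *Igfbp4* and 0.16 for *Igfbp6*.

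Levels between genes were compared per kilobase of merged exons (RPKM), over all 10 mice. *Igfbp7* was highest with 346 ± 20.8 RPKM (SD, n = 10), followed by *Igf2* with 233 ± 33.2, *Igfbp5* with 140 ± 20.5 and *Igfbp4* with 103 ± 13.4. This order held in each of the 10 mice. *Igfbp6* (36.9 ± 4.68 RPKM), *Igfbp3* (27.7 ± 3.95), *Igf2r* (27.3 ± 3.63) and *Igf1* (21.2 ± 3.32) formed a middle group. Within it, *Igfbp3* exceeded *Igf2r* in only 4 of 10 mice, so these neighbours did not differ beyond their spread, and *Igfbp6* exceeded *Igfbp3* in 8. *Igfbp2* (3.53 ± 0.910 RPKM) and *Igf1r* (1.74 ± 0.194) were the lowest, in that order in each mouse. The signalling receptor was thus the scarcest of the 10 transcripts. When the longest annotated transcript was used as the length, *Igf1* ranked above *Igf2r* by its mean, but in only 5 of 10 mice, and the other 8 ranks stayed. With that length *Igfbp5* exceeded *Igfbp4* in 9 of 10 mice and *Igfbp6* exceeded *Igfbp3* in 5, so neither *Igf1* and *Igf2r* nor *Igfbp6* and *Igfbp3* differed beyond their spread.

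**Figure D3:**
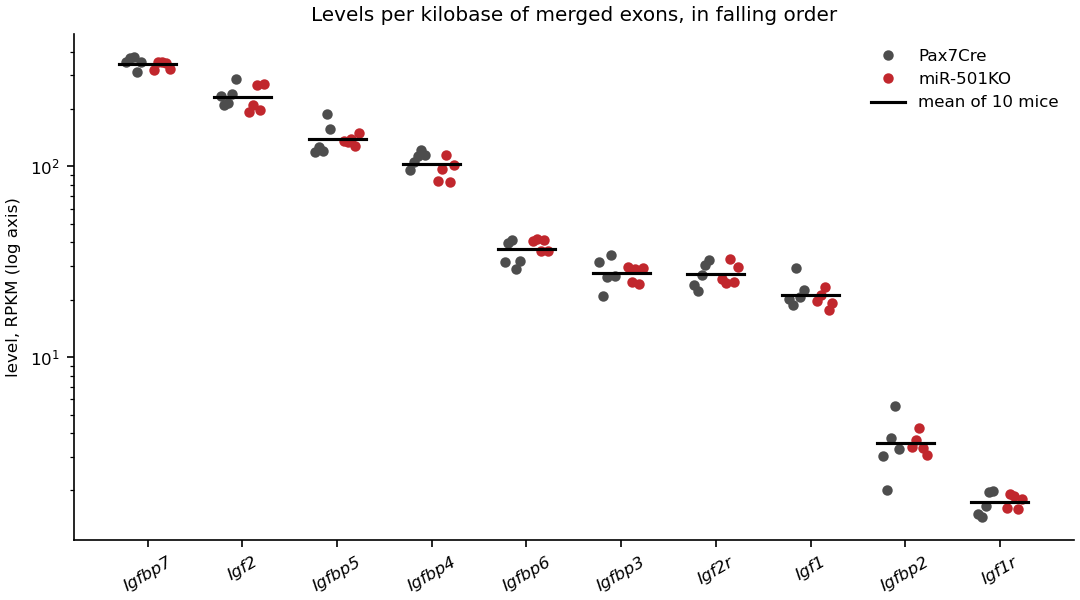
Level of each gene in RPKM (y axis, log scale), ordered from the highest to the lowest mean. Points are the mice (grey, Pax7Cre; red, miR-501KO) and lines the mean of 10 mice. *Igfbp7* (346 RPKM) and *Igf2* (233 RPKM) lead, and *Igf1r* (1.74 RPKM) is the lowest.

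Most binding protein RNA came from few genes. On the RPKM scale, *Igfbp7* made up 52.7% ± 3.24 of the summed level of the 6 binding proteins, *Igfbp5* 21.3% ± 2.70 and *Igfbp4* 15.6% ± 1.43 (SD, n = 10 mice). *Igfbp6*, *Igfbp3* and *Igfbp2* made up 5.64%, 4.21% and 0.536%. The share of *Igfbp7* depends on its short transcript, with 1209 bases of merged exons against 6006 for *Igfbp5*.

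Ratios within a mouse do not depend on how libraries are scaled, and 4 were compared. *Igf2* exceeded *Igf1* by a geometric mean of 10.7-fold in Pax7Cre and 11.2-fold in miR-501KO mice on the per-length scale (exact two-sided permutation p = 0.778). The values in Pax7Cre mice 1 to 5 were 11.7, 11.3, 7.35, 11.5 and 12.8, and those in miR-501KO mice 1 to 5 were 9.82, 9.85, 11.5, 11.2 and 14.1, so mouse 3 of the controls was the lowest and the genotypes overlapped. The *Igf1r* to *Igf2r* ratio was 0.0632 and 0.0645 (p = 0.817 by the same exact test). The ratio of summed binding proteins to summed ligands was 2.60 and 2.62 (p = 0.881 by the same exact test). *Igfbp5* relative to the other binding proteins gave 0.265 and 0.272 (p = 0.825 by the same exact test), from 0.216 in Pax7Cre mouse 3 to 0.372 in Pax7Cre mouse 4. The smallest p that 5 mice against 5 allow in this test is 0.00794.

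**Figure D4:**
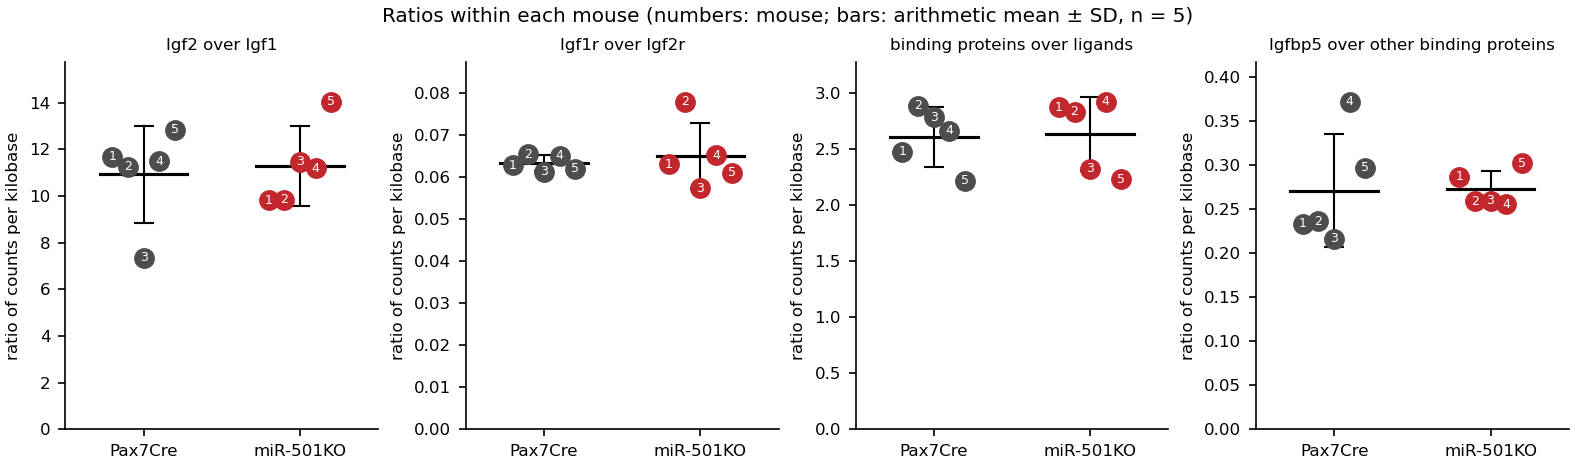
The 4 ratios of counts per kilobase (y axes, from 0) in each mouse, with Pax7Cre in grey, miR-501KO in red, mouse numbers in the points, lines for arithmetic means and bars for ± SD (n = 5). The genotypes overlap in each panel, and Pax7Cre mouse 3 is the lowest point for *Igf2* over *Igf1* (7.35).

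The wider pathway was read from 7 lists holding 56 genes, of which 55 were in the count data and 48 passed the filter on low counts. None passed an adjusted p of 0.05 or an unadjusted p of 0.05 in the fit of all 10 mice, where 1.05% of all genes passed the latter. By the sign of the estimate, 20 were higher and 28 lower in miR-501KO mice, with a median log2 fold change of -0.011 against -0.0042 over all genes tested. Of all genes tested, 47.9% were higher. Among binding partners and proteases, 1 of 5 was higher. The largest estimate in this list was that of *Pappa2*, a protease of IGFBP5, at -0.47 (SE 0.312, unadjusted p 0.154), a gene with only 13 to 52 counts per mouse. *Pappa*, which cleaves IGFBP4, was at -0.079 (SE 0.196).

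Downstream of the receptor, estimates were small. Of the insulin receptor family and its adaptors, 4 of 9 were higher, and *Irs1*, the adaptor through which the receptor reaches PI3K, was at 0.030 (SE 0.100). Of the PI3K and AKT genes, 4 of 11 were higher, and the kinase genes *Akt1* and *Akt2* were at -0.032 (SE 0.0824) and -0.11 (SE 0.107). In the mTORC1 branch, 7 of 11 were higher, in a list that holds both activators and repressors, against 47.9% of all genes tested. The largest estimate was that of *Eif4ebp1*, a repressor of translation that mTORC1 switches off, at 0.13 (SE 0.0810, unadjusted p 0.136). Its unadjusted p was 0.0432 without Pax7Cre mouse 4, 1 of 10 fits that left out a mouse. In that fit 470 of 14487 genes were under 0.05.

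All 6 genes of the FoxO branch had a lower mean in miR-501KO mice, with a median log2 fold change of -0.088, and none of them passed the test. Over all genes tested, 47.9% were higher. The 6 were measured in the same mice, so they are not independent results. *Foxo6*, a brain-enriched member of the FoxO family, had the smallest unadjusted p of the 48 pathway genes, 0.0723, with 8.84 ± 1.58 CPM in Pax7Cre and 7.28 ± 1.10 CPM in miR-501KO mice (SD, n = 5 each; exact two-sided permutation p = 0.127). Its log2 fold change was -0.28 (SE 0.144). The unadjusted p was 0.0236 without Pax7Cre mouse 1 and 0.0429 without miR-501KO mouse 2. These fits were picked for their small p from the 10 that left out 1 mouse. In them 192 of 14490 and 151 of 14503 genes were under 0.05. The ubiquitin ligases *Fbxo32* and *Trim63*, which FoxO factors induce in wasting muscle, were at -0.081 (SE 0.190) and -0.095 (SE 0.201). Their CPM varied more between control mice (37.7 ± 12.8 and 63.4 ± 22.2) than between miR-501KO mice (35.6 ± 6.12 and 59.4 ± 10.7; SD, n = 5 each). In the growth hormone axis 2 of 4 were higher, and the hormone's receptor *Ghr* was at 0.023 (SE 0.136). Both tested partners of *Igf2* RNA were higher, *Igf2bp2* at 0.069 (SE 0.122) and *Igf2bp3*, with 2 to 14 counts per mouse, at 0.34 (SE 0.366). *H19*, the imprinted neighbour of *Igf2*, was not analysed here.

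The 7-base match was found in 4 of the 48 pathway genes, against 8.23% of tested genes with an annotated 3′ UTR. These were *Foxo3*, *Grb2*, *Pdpk1* and *Pik3ca*, whose log2 fold changes were -0.028, 0.015, -0.014 and 0.012. The 6-base match was found in 29 of the 48, against 33.8%. Tested genes with the 6-base match had a median 3′ UTR of 2382.5 bases, against 1345.5 for all, and UTR length was not matched. Over all tested genes, the median log2 fold change was -0.0093 with the 7-base match and -0.0038 without it.

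No marker list differed between the genotypes by more than the spread between mice. The summed CPM of the mature fiber list was 58393 ± 19912 in Pax7Cre and 60990 ± 5500 in miR-501KO mice (SD, n = 5 each; exact two-sided permutation p = 0.762). For the regenerating fiber, myogenic progenitor, macrophage, fibro-adipogenic progenitor and endothelial lists, the same exact test gave p = 0.500, 0.786, 0.913, 0.905 and 0.635. No gene of the 6 lists passed an unadjusted p of 0.05, which 1.05% of all genes did.

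Across the 10 mice, none of the 60 relations between a gene and a list passed a Benjamini-Hochberg adjusted p of 0.05. Each relation used log2 CPM of the gene and mean log2 CPM of the list, both taken from the same library. *Igfbp3* and the myogenic progenitor list gave Pearson's r = 0.83 (permutation p = 0.00302, adjusted 0.0583) and Spearman's rho = 0.83 (permutation p = 0.00499, adjusted 0.0748). Without the 2 mice farthest from the median of the list, Pax7Cre mice 2 and 4, r was 0.51, and it was 0.89 within Pax7Cre mice and 0.65 within miR-501KO mice. *Igfbp3* and the macrophage list gave r = 0.82 (permutation p = 0.00348, adjusted 0.0583) and rho = 0.87 (permutation p = 0.00207, adjusted 0.0621), and r was 0.68 without Pax7Cre mice 1 and 4. Within Pax7Cre mice this r was 0.93 and within miR-501KO mice 0.38. *Igfbp7* ran the other way, with r = -0.83 against the progenitor list (permutation p = 0.00274, adjusted 0.0583) and rho = -0.83 (permutation p = 0.00466, adjusted 0.0748). Its r was -0.72 without Pax7Cre mice 2 and 4, -0.89 within Pax7Cre mice and -0.82 within miR-501KO mice.

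*Igfbp5* and the progenitor list gave r = 0.78 (permutation p = 0.00778, adjusted 0.0583) and rho = 0.68 (permutation p = 0.0342, adjusted 0.293). Its r was 0.61 without Pax7Cre mice 2 and 4, 0.82 within Pax7Cre mice and 0.64 within miR-501KO mice. *Igf1r* and the regenerating fiber list gave r = 0.72 (permutation p = 0.00588, adjusted 0.0583) and rho = 0.67 (permutation p = 0.0387, adjusted 0.293). This r was 0.51 without Pax7Cre mice 2 and 4, 0.80 within Pax7Cre mice and 0.36 within miR-501KO mice. *Igfbp7* and the fibro-adipogenic progenitor list gave r = 0.72 (permutation p = 0.0180, adjusted 0.0981) and rho = 0.87 (permutation p = 0.00195, adjusted 0.0621). Its r was 0.60 without mouse 3 of each genotype, 0.72 within Pax7Cre mice and 0.76 within miR-501KO mice.

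Several relations rested on few mice. *Igfbp2* and the mature fiber list had r = -0.85 (permutation p = 0.00758, adjusted 0.0583) and rho = -0.61 (permutation p = 0.0653, adjusted 0.327). Without Pax7Cre mice 2 and 4 its r was -0.14, so the relation rests on them. The same held for *Igfbp2* with the regenerating fiber list, with r = 0.79 (permutation p = 0.0142, adjusted 0.0850), rho = 0.55 (permutation p = 0.104, adjusted 0.369) and an r of -0.12 without these mice. For *Igfbp3* with the mature fiber list, r = -0.80 (permutation p = 0.00630, adjusted 0.0583) and rho = -0.67 (permutation p = 0.0395, adjusted 0.293) stood against an r of -0.31 without them. With the regenerating fiber list, r = 0.77 (permutation p = 0.00743, adjusted 0.0583) and rho = 0.59 (permutation p = 0.0815, adjusted 0.349) stood against 0.26. *Igf1* and the fibro-adipogenic progenitor list had r = 0.77 (permutation p = 0.0106, adjusted 0.0708) and rho = 0.65 (permutation p = 0.0488, adjusted 0.293). Its r was 0.14 without mouse 3 of each genotype, so this relation rests on those mice. For *Igf2*, r lay between -0.095 and 0.34 over the 6 lists.

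**Figure D5:**
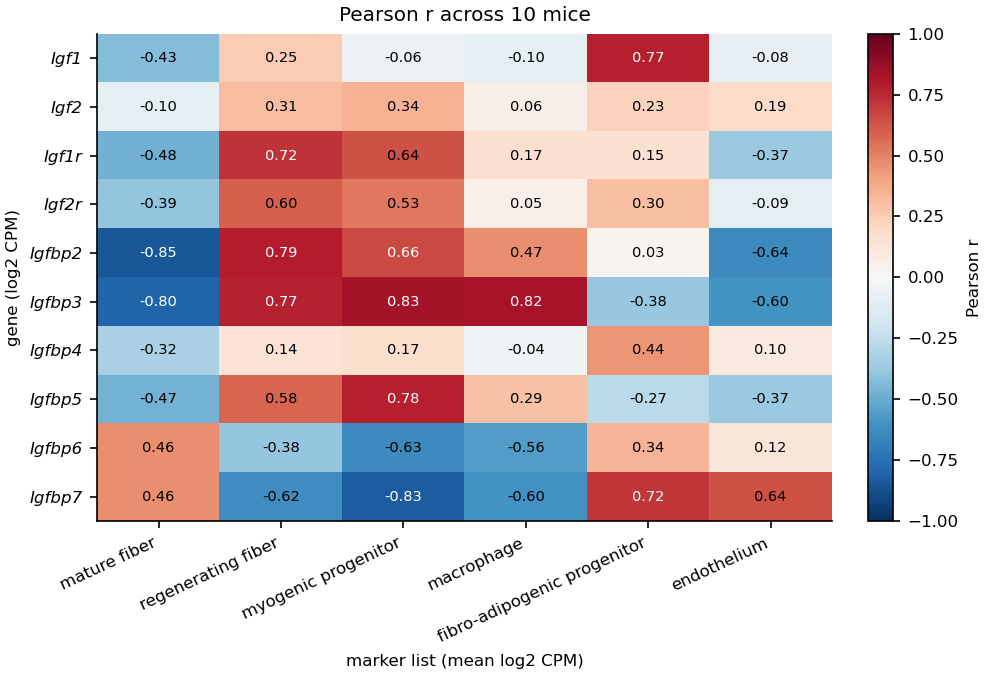
Pearson r across 10 mice between the log2 CPM of each gene (rows) and the mean log2 CPM of each marker list (columns), printed in the cells and colored from -1 (blue) to 1 (red). *Igfbp2* and *Igfbp3* are negative against mature fiber markers (-0.85 and -0.80), *Igfbp6* and *Igfbp7* have the opposite sign in that column (0.46 each), and without Pax7Cre mice 2 and 4 these values are -0.14, -0.31, -0.075 and -0.31. No cell passes an adjusted p of 0.05.

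Among the genes themselves, 0 of 45 pairs passed an adjusted p of 0.05. The highest r was that of *Igf2* with *Igf2r*, 0.80 (permutation p = 0.00791, adjusted 0.142), with rho = 0.66 (permutation p = 0.0432, adjusted 0.243) and an r of 0.61 without Pax7Cre mouse 5 and miR-501KO mouse 3. The receptors *Igf1r* and *Igf2r* had r = 0.80 (permutation p = 0.00945, adjusted 0.142) and rho = 0.76 (permutation p = 0.0150, adjusted 0.228), and r was 0.73 without the same 2 mice. Within Pax7Cre mice this pair had r = 0.98 and within miR-501KO mice 0.45. *Igf1r* with *Igfbp5* had the smallest permutation p, 0.00598 (r = 0.77, adjusted 0.142), and rho = 0.79 (permutation p = 0.00863, adjusted 0.228). For this pair r was 0.68 without Pax7Cre mice 4 and 5, 0.87 within Pax7Cre mice and 0.45 within miR-501KO mice.

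As a description, the genes whose log2 CPM was most like each IGF gene over the 10 mice were read from the 14409 other tested genes. For *Igf1* these were *Sulf1*, a heparan sulfate sulfatase (r = 0.95), *Pros1* (0.95) and *D3Ertd254e* (0.93). For *Igf2* they were *Gm49394*, the model that overlaps its exons (0.997), *Ephb1* (0.93) and *Cyfip2* (0.91). *Igf1r* was most like *Maml1*, a Notch coactivator (0.97), *Nynrin* (0.97) and *Scarf2* (0.96), and *Igf2r* most like *Tram2* (0.97), *Sh3pxd2b* (0.97) and *Pxdn*, a matrix peroxidase (0.96).

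For *Igfbp3* the most alike were *Sf3b3* (r = 0.95) and the proliferation genes *Tpx2*, a spindle factor (0.95), and *Mcm2*, a subunit of the replicative helicase (0.94). For *Igfbp7* they were *Fabp4* (0.94), a fatty acid carrier of adipocytes and capillary endothelium, *Angptl1* (0.93) and *Dpt*, which is on the fibro-adipogenic progenitor list (0.93). *Igfbp4* was most like *Dchs2* (0.98), *Cpz* (0.97) and *Nck2* (0.94), *Igfbp5* most like *Klhl26* (0.97), *Tle3* (0.96) and *Smg8* (0.96), and *Igfbp6* most like *Crispld2* (0.93), *Csrp3* (0.93) and *Zrsr1* (0.93). *Igfbp2* was most like *Plxnb1* (0.94), *BC034090* (0.94) and *4931428F04Rik* (0.94), and for *Plxnb1* r was 0.71 without Pax7Cre mice 2 and 4. With 10 points and this many genes compared, high values of r are found for any gene, so they carry no p.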

How the data were processed

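RNA-seq libraries (stranded mRNA kit, single-end reads) of 5 Pax7Cre and 5 miR-501KO mice were analysed, with groups taken from the sample titles. The authors deposited raw counts per Ensembl gene. Per the labels and methods, reads were aligned with STAR to GRCm38.p5 and counted with featureCounts, and the submitters' processing notes also name R 3.5.1. Settings for strand and for reads on several genes are not given in the sources used here. Checked on the values, counts were whole and totals ran from 18609222 to 24753258 per mouse, so the precision of low genes such as *Igfbp2* is also limited by counting. Of the 25700 genes, 25664 matched GENCODE release M21, and 5846 had no read. No libraries of a genotype were copies (lowest chi-square per degree of freedom 9.47 for genes averaging 50 counts or more). The labels do not say that the mice came from separate preparations, so p-values measure the spread between these samples.

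After filterByExpr (minimum count 10, minimum total 15), 14410 genes were scaled with TMM factors and tested between genotypes with edgeR 4.0.16 (quasi-likelihood test, Benjamini-Hochberg adjustment) in R 4.3.3. Exact two-sided permutation tests of mean CPM, marker sums and log2 ratios used all 252 splits, and correlations 100000 permutations. RPKM used TMM library sizes and merged exon lengths. On simulated counts for miR-501KO against Pax7Cre with 14330 genes, 90.4% of 198 genes changed by a log2 fold change of 1 were recovered, with 4.79% false among 188 calls. UTR matches were searched on the sense strand of GENCODE transcripts with a complete end.

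Members, pathway lists and marker lists were chosen with earlier results of these data known. The rule for names took the 10 genes, pathway genes with an unadjusted p under 0.05 (there were none) and the 3 genes most like each member. Of the pathway genes, 1 is not reported by name here. The pathway genes, *Gm49394* and other neighbours named here were chosen after their values were seen. Alternatives were DESeq2 size factors, DESeq2 1.42.0, leaving out each mouse, the longest transcript, a replicate block, a minimum of 10 counts in all mice and no filter. Leaving out *Gm49394*, and Pax7Cre mice 2 and 4 together, was added after seeing the data.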

Additional observations from a re-analysis of the deposited data

Results flagged for a closer look

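The *Igf2* to *Igf1* ratio of Pax7Cre mouse 3 was far from the other control mice. It was 7.35 on the per-length scale, against 11.3 to 12.8 in the other 4, a gap of 0.712 of the group's range, just over Dixon's 95% limit for 5 samples. This mouse had the highest *Igf1* (290.2 CPM) of the 10, while its *Igf2* (1232 CPM) lay within the range of the others. Without it, the log2 difference of the ratio between genotypes (miR-501KO minus Pax7Cre) was -0.078 in place of 0.058. In all, 20 quantities were examined in both genotypes, 40 groups, of which chance marks about 2 (1 in 20), so 1 mark is no more than chance gives.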

How the results depend on the processing

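No alternative gave an IGF or pathway gene an adjusted p under 0.05, and no gene of the whole table reached it either. Before adjustment, the number of genes was 312 with no filter, 531 without Pax7Cre mice 2 and 4 together, and 98 to 470 when single mice were left out, against 151 in the fit of all mice. IGF genes at an unadjusted p under 0.05 numbered 0 to 1 when single mice were left out, and pathway genes likewise 0 to 1. Such single fits were those without Pax7Cre mouse 1, 2 or 4 or miR-501KO mouse 2, with 1 pathway gene each, and without Pax7Cre mice 2 and 4 together there was also 1 pathway gene. The labels do not say whether equal mouse numbers pair the mice. The correlation of deviations from the group mean was 0.34, -0.15, 0.16, -0.30 and 0.20 for numbers 1 to 5. These values were not tested, so they do not decide it. With the mouse number as a replicate block, 189 genes and 1 pathway gene (*Foxo6*) had an unadjusted p under 0.05.

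*Igfbp2*, near 0 in the fit of all mice, was at -4.8e-04 with no filter and at -0.0022 with at least 10 counts in every mouse. Without Pax7Cre mice 2 and 4, *Igf2r* was at -0.016 and *Igfbp5* at 0.051, both of opposite sign to the fit of all mice. Leaving out single mice moved the log2 fold change from -0.13 to 0.017 for *Igf2*, -0.017 to 0.096 for *Igf1r*, -0.056 to 0.081 for *Igf2r*, -0.14 to 0.23 for *Igfbp2*, -0.12 to 0.053 for *Igfbp3* and -0.11 to 0.068 for *Igfbp5*. *Igf1* (-0.20 to -0.019), *Igfbp4* (-0.27 to -0.15), *Igfbp6* (0.12 to 0.25) and *Igfbp7* (-0.094 to -0.029) had 1 sign in every such fit. The log2 difference of the ratios ran from -0.078 to 0.12 for *Igf2* over *Igf1*, -0.039 to 0.072 for *Igf1r* over *Igf2r*, -0.043 to 0.072 for binding proteins over ligands and -0.038 to 0.16 for *Igfbp5* over the other binding proteins. The cause of these moves was not tested. DESeq2 size factors, DESeq2's test and leaving out *Gm49394* changed no direction or call. The longest transcript changed no direction or call of the ratios, and in the order of levels 8 of 10 ranks stayed. Detection was simulated only at a log2 fold change of 1, so what smaller difference 5 mice per genotype can show was not measured.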

Other observations

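Other genes of the system had few or no counts in this muscle and did not pass the filter for the edgeR test. *Igfbp1*, a binding protein made by liver, had 0 to 1 counts per mouse, as did *Igfbpl1* and the adaptor *Irs4*. *Igfals*, which stabilizes IGFs in serum complexes, had 4 to 13 counts, with 0.495 ± 0.125 CPM in Pax7Cre and 0.332 ± 0.108 CPM in miR-501KO mice (SD, n = 5 each; exact two-sided permutation p = 0.0635, not adjusted). *Insrr*, an orphan receptor of the insulin receptor family, had 1 to 11, and the fetal RNA-binding protein *Igf2bp1* had 0 to 2. *Lin28b*, a fetal repressor of let-7 miRNAs, had no count in any of the 10 mice, which allows up to 3 counts or 0.120 to 0.159 CPM per mouse. These limits cover counting error only.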
